A study of Mus musculus with 12 samples.

Results

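Erythropoietin receptor signalling was followed through the transcripts of 7 genes in differentiating mouse erythroid cells: the receptor gene Epor, the kinase gene Jak2, the transcription factor genes Stat5a and Stat5b, and the STAT5-induced genes Cish, Socs3 and Pim1. The members were picked by gene symbol from the 55487 gene rows of each library, and each symbol occurred once. All 7 passed the filter of a mean of at least 1 TPM, transcripts of a gene per 1e+06 transcripts, as did 11379 rows in all. TPM is scaled by transcript length, so levels of different genes can be set side by side.

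Erythropoietin binds a pair of receptor chains on erythroid progenitors and brings together the JAK2 kinases bound to them. JAK2 then phosphorylates the receptor and STAT5, and STAT5 enters the nucleus and induces genes for survival and for feedback. Progenitors need this signal to survive, and CIS (encoded by Cish) and SOCS3 dampen it at the receptor. The Epor gene itself is a known target of GATA1, the main erythroid transcription factor.

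The cells were G1E-ER4, an immortal line of mouse erythroid progenitors without a GATA1 gene of its own, into which a GATA1 that estradiol switches on was introduced. The 4 groups were siZIP10 plus DTPA (3 libraries used), siControl plus DTPA (2), siZIP10 (3) and siControl (3). siZIP10 is an siRNA against Slc39a10, which encodes the zinc importer ZIP10, and siControl is the control siRNA, each given in transfections 24 h apart. DTPA, a chelator of zinc and other metals, was added at 25 µM when differentiation began. Every group, controls included, was nucleofected, received 100 nM β-estradiol and was harvested after 24 h. The line was kept in medium with 2 U/mL erythropoietin and Kit ligand, and the labels do not say whether that medium was changed for differentiation. All replicates are cultures of 1 cell line, 1 siRNA label served for Slc39a10, and no group had zinc or ZIP10 restored. The values given for siControl plus DTPA replicate 3 were equal to those of siZIP10 replicate 1 in all 55487 rows, under a heading that names siZIP10, so they were left out.

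Recovered depth was 19.6 M to 24.7 M reads in a library (1 M is 1e+06). Slc39a10 averaged 5.10 TPM in siZIP10 plus DTPA, 21.1 in siControl plus DTPA, 0.627 in siZIP10 and 2.62 in siControl, so the doubly treated cells held more of it than control cells. Of 10 erythroid markers, 9 were listed and all 9 averaged at least 1 TPM in every group, with a summed level of 37925 to 45737 TPM in siZIP10 plus DTPA, 47318 to 53842 in siControl plus DTPA, 45213 to 48590 in siZIP10 and 39763 to 44723 in siControl. The siZIP10 plus DTPA libraries stood apart: the share of TPM from mitochondrial rRNA was 1.43% to 1.45% there, against 0.262% to 0.421% in the other libraries used. Protein-coding genes of the nucleus held 77.3% to 79.6% of TPM there, against 82.6% to 84.1%. The summed level of 6 megakaryocyte markers was 57.3 to 58.5 TPM in siZIP10 plus DTPA, against 25.7 to 26.7 in siControl plus DTPA, 17.2 to 18.7 in siZIP10 and 16.2 to 17.5 in siControl. That of 6 mast cell and basophil markers was 20.8 to 22.7 TPM in siZIP10 plus DTPA, against 0.832 to 2.49 elsewhere. Hdc alone, at 0.832 to 22.5 TPM, made up nearly all of it: Cpa3 and Tpsb2 reached at most 0.0951 and 0.0981 TPM, and Fcer1a, Mcpt8 and Ms4a2 were at 0 in every library. The 6 myeloid markers summed to 5.86 to 6.80 TPM in siZIP10 plus DTPA, against 2.33 to 5.16 elsewhere. Most of that sum was Cd68, at 2.05 to 6.66 TPM: Csf1r and Lyz2 reached at most 0.416 and 0.112 TPM, and Mpo, Elane and Itgam were at 0 in every library. The part of these shares and markers in the results below was not tested. In bulk RNA, fewer cells of a type and less RNA per cell cannot be told apart.

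Promoters were examined because Epor, Cish and Socs3 fell together with both treatments. Jak2 was slightly lower as well, and its promoter held none of the motifs described below. All 7 genes have RefSeq entries (build GRCm38.p6, 250 bases before the start site and 50 from it on), 10 in all since Stat5a, Stat5b and Pim1 have a pair each. The STAT5 motif TTCNNNGAA, which reads the same on both strands, occurred in the entries of Cish and Socs3 and in no other of the 10. It occurred in 8.3% of 32851 mouse promoters of that length. The GATA motif (AGATAA on either strand, where the first letter may also be T and the last may also be G) occurred only in Epor among the 10, and in 29.8% of all. The lines below show Cish on the plus strand at chr9:107296409-107296708, Epor on the minus strand at chr9:21963527-21963826 and Socs3 on the minus strand at chr11:117969317-117969616, each 5′ to 3′ along its gene. Capitals mark the STAT5 motif in Cish and Socs3 and the GATA motif in Epor.
Cish: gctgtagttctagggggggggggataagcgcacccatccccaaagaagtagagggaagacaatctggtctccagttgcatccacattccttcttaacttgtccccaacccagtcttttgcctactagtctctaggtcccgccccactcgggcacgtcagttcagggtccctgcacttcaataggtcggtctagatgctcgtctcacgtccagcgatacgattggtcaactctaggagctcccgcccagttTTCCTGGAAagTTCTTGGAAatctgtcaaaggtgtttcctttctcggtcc
Epor: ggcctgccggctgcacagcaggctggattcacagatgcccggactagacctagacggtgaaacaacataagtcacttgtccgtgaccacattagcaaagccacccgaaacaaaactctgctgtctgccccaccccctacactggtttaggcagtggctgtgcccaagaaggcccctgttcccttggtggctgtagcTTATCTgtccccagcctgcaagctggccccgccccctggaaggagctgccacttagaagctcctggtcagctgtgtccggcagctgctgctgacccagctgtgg
Socs3: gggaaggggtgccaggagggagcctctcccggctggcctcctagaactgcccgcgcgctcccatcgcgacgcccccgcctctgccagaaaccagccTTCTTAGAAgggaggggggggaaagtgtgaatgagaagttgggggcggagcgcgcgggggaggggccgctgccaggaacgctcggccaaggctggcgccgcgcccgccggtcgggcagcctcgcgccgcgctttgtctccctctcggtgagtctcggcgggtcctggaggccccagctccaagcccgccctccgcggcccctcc
Counted from 0 at the start site, the pair of motifs in Cish, TTCCTGGAA and TTCTTGGAA, lies at bases 0 to 8 and 11 to 19. The Epor motif lies at −54 to −49 and reads TTATCT, the reverse complement of AGATAA. The Socs3 motif, TTCTTAGAA, lies at −154 to −146. These positions are counted from the RefSeq start sites. The Cish and Socs3 windows lie wholly inside the gene spans given below, which come from another annotation (GENCODE) with starts farther upstream. The metal response element searched was TGCACNC on either strand, where the A may also be G, the core bound by the zinc sensor MTF1. It was in none of these 3 windows and in 25.7% of all promoters. Among the other member entries, a Pim1 entry held it at −4 to 2. A Stat5b entry held it at the overlapping positions −146 to −140 and −145 to −139. These matches describe the letters of the windows only, and binding was not measured.

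In control cells the levels differed widely. Pim1 stood highest at 645.7 ± 20.1 TPM in siControl (SD, n = 3 here and for the next 6 values), followed by Stat5b at 216.2 ± 3.67, Epor at 150.8 ± 5.85, Cish at 128.6 ± 0.415, Jak2 at 76.0 ± 1.03, Stat5a at 21.8 ± 0.173 and Socs3 at 5.48 ± 0.394. No neighbours in that order overlapped in any library. In siZIP10 plus DTPA, Epor averaged 70.9 ± 2.77 TPM and Jak2 at 70.9 ± 0.649 (SD, n = 3), so these genes did not differ beyond their spread in those cells, and Cish, at 98.6 ± 1.40 TPM, was above Epor. Stat5b transcripts outnumbered those of Stat5a in every library. Stat5a made up 16.4% ± 0.582 of the summed TPM of both genes in siZIP10 plus DTPA (SD, n = 3), against 9.73% ± 0.394 in siControl plus DTPA (n = 2), 9.58% ± 0.384 in siZIP10 and 9.15% ± 0.0775 in siControl (n = 3 each).

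**Figure D1:**
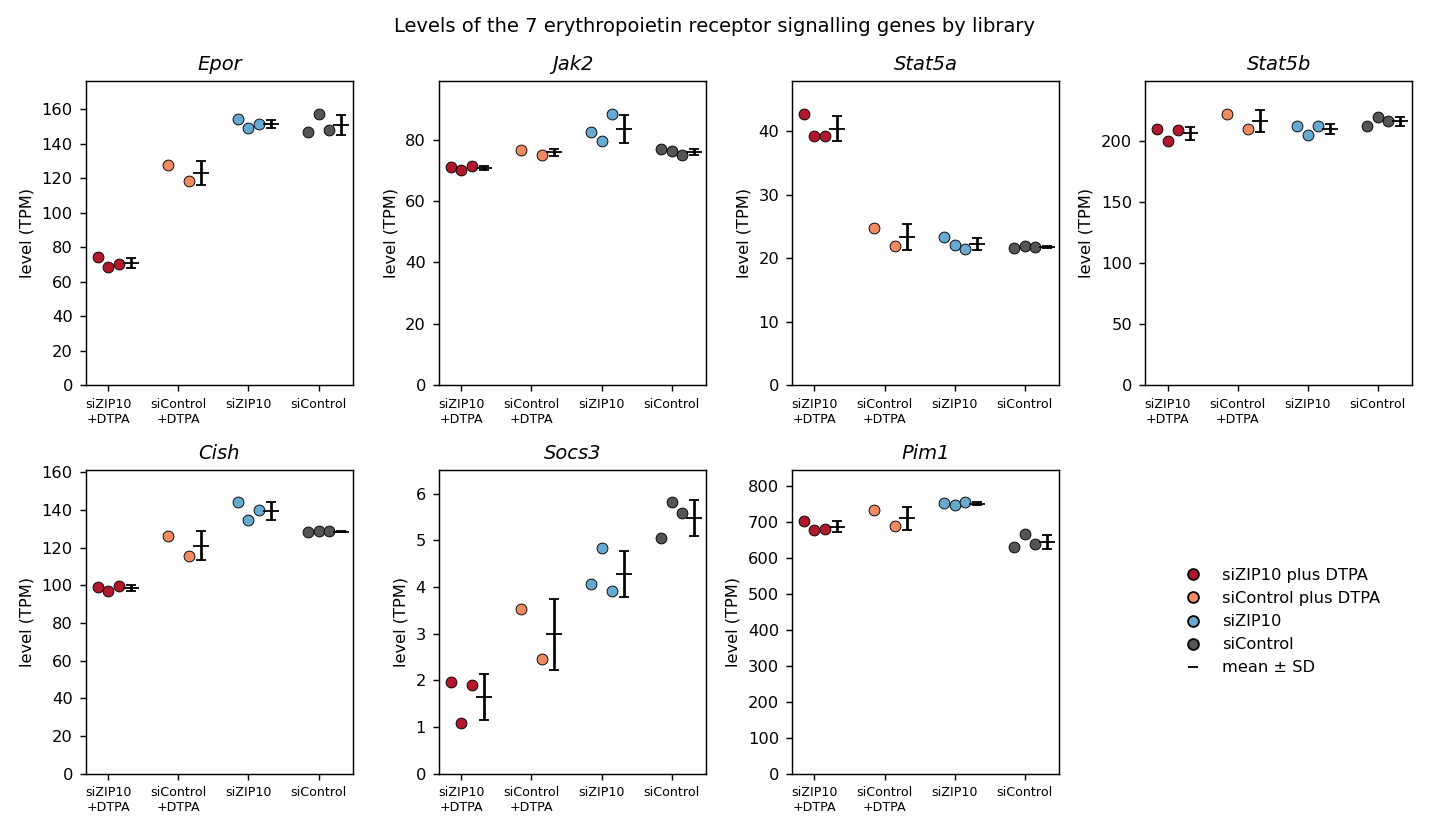
Level in TPM of each of the 7 genes in every library, with 1 point for each library, by group, and the group mean ± SD at the right of the points. Epor points of siZIP10 plus DTPA lie between 68.7 and 74.0 TPM and those of siControl between 146.7 and 157.5, while Stat5a points of siZIP10 plus DTPA are the highest of that gene.

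The comparison of both treatments with control asked what the chelator and the knockdown did together. Epor (ENSMUSG00000006235.6, mm10 chromosome 9, 21958897 to 21963506, minus strand), the receptor gene, fell to less than its control level in every library. Epor measured 74.0, 68.7 and 70.1 TPM in siZIP10 plus DTPA replicates 1 to 3 (1090, 1136 and 967 reads), against 146.7, 157.5 and 148.1 TPM in the siControl replicates (2220, 2179 and 1826 reads). Every doubly treated library lay below every control library, and the mean was 47.1% of control. On the log2(TPM + 1) scale used for every test the change was −1.08 (SE 0.04, limma adjusted p = 2.37e-09).

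Stat5a (ENSMUSG00000004043.14, chromosome 11, 100859351 to 100885169, plus strand), one of the genes for the STAT5 factor that the receptor activates, rose with both treatments. Its level was 42.7, 39.2 and 39.2 TPM in siZIP10 plus DTPA, against 21.6, 21.9 and 21.8 TPM in siControl, and the lowest doubly treated library was above the highest control library. Its mean was 185.6% of control (log2 change 0.86, SE 0.05, adjusted p = 1.22e-07). Stat5b (ENSMUSG00000020919.11, chromosome 11, 100780731 to 100850724, minus strand), the neighbouring gene, encodes a closely related STAT5 protein. It was not called: it stood at 209.4, 200.1 and 209.2 TPM in siZIP10 plus DTPA, against 212.3, 219.6 and 216.7 TPM in siControl (log2 change −0.07, 95% interval −0.13 to −0.000864, adjusted p = 0.0691). Stat5b was called higher (0.10, adjusted p = 0.00324) after quantile normalization, so its direction depended on scaling. The 3′ end of Stat5a overlaps Stat3, on the opposite strand, by 72 of its 7133 exonic bases, and the strand setting of the authors' counting is not given in the sources used here. Stat3 rose too, to 91.5 ± 4.56 TPM in siZIP10 plus DTPA, against 59.5 ± 0.386 TPM in siControl (SD, n = 3 each).

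Among the STAT5-induced genes, Cish and Socs3 fell and Pim1 was slightly higher. Cish (ENSMUSG00000032578.7, chromosome 9, 107296026 to 107302784, plus strand) stood at 99.1, 97.0 and 99.7 TPM in siZIP10 plus DTPA, against 128.1, 128.9 and 128.8 TPM in siControl. These values did not overlap, and the doubly treated mean was 76.7% of control (log2 change −0.38, SE 0.04, adjusted p = 3.63e-06). After quantile normalization the change of Cish was smaller, −0.18 (adjusted p = 0.000205). Socs3 (ENSMUSG00000053113.3, chromosome 11, 117966079 to 117970047, minus strand) was the least abundant member, at 1.96, 1.08 and 1.90 TPM in siZIP10 plus DTPA (42, 26 and 38 reads) and 5.05, 5.82 and 5.58 TPM in siControl (111, 117 and 100 reads). It held 30.0% of the control level, with no overlap (log2 change −1.31, SE 0.16, adjusted p = 2.59e-05), although few reads stand behind each value. Pim1 (ENSMUSG00000024014.8, chromosome 17, 29490753 to 29496112, plus strand) encodes a serine/threonine kinase that promotes survival. It stood at 704.3, 677.0 and 682.3 TPM in siZIP10 plus DTPA, against 630.5, 668.5 and 638.0 TPM in siControl without overlap (log2 change 0.09, SE 0.03, adjusted p = 0.0207). Leaving out siControl replicate 1 or 3 or siZIP10 plus DTPA replicate 1 ended that call (0.07 to 0.08, adjusted p = 0.0665 to 0.08). A limma fit without trend ended it as well (0.09, adjusted p = 0.0504). The change was 0.18 with median-of-ratios scaling (adjusted p = 0.000134) and 0.18 after rescaling to nuclear protein-coding genes. Genes on the opposite strand overlap Cish (Gm17040, 261 bases, and Gm17041, 479 bases) and Pim1 (Gm26885, 488 bases), and none of them averaged over 5.42 TPM in a group.

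Jak2 (ENSMUSG00000024789.13, chromosome 19, 29251828 to 29313080, plus strand), the kinase gene, stood at 71.2, 70.1 and 71.3 TPM in siZIP10 plus DTPA, against 76.8, 76.4 and 74.9 TPM in siControl. Its change of −0.10 (SE 0.04, adjusted p = 0.0318) was lost under more alternatives than any other of these 6 calls: it was −0.01 with median-of-ratios scaling and turned to 0.06 (adjusted p = 0.103) after quantile normalization. It was also lost without siControl replicate 1 or 2 or any of the siZIP10 plus DTPA replicates (−0.10 to −0.09, adjusted p = 0.0574 to 0.0829). In all, 6 of the 7 genes were called with both treatments, 4 lower and 2 higher. Over all genes tested 66.6% were called, 39.9% lower and 26.7% higher, so the members' 6 calls stand beside a high background. The members' median log2 change was −0.10, against −0.08 over all genes.

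**Figure D2:**
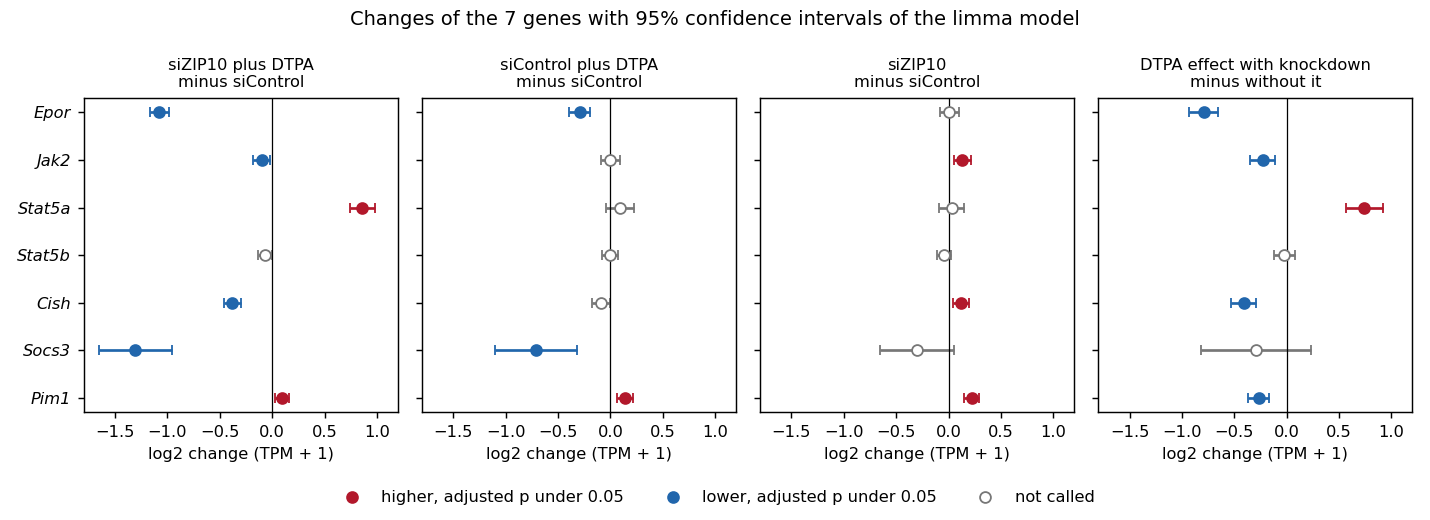
Log2 change of TPM + 1 for each gene, with the 95% confidence interval of the limma model, with both treatments, with DTPA alone and with the knockdown alone, each against siControl, and for the interaction at the right. Epor and Socs3 lie left of 0 with both treatments and with DTPA alone, and Stat5a lies right of 0 with both treatments (0.86) and in the interaction (0.74).

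DTPA alone was set against control to ask what the chelator did in cells with the control siRNA. The receptor gene Epor fell, by less than in doubly treated cells: it measured 127.9 and 118.2 TPM in siControl plus DTPA, below all 3 siControl libraries, and averaged 81.6% of control (log2 change −0.29, SE 0.05, adjusted p = 0.000848). Socs3, the feedback inhibitor gene, fell to 3.52 and 2.45 TPM in siControl plus DTPA (75 and 54 reads), 54.5% of control on average (−0.71, SE 0.18, adjusted p = 0.0117). Pim1 rose to 732.9 and 688.4 TPM in siControl plus DTPA, 110.1% of control (0.14, SE 0.03, adjusted p = 0.0114). Cish, at 126.4 and 115.6 TPM, was not called (−0.09, 95% interval −0.18 to 0.000883, adjusted p = 0.13), nor were Jak2 (76.7 and 75.0 TPM), Stat5a (24.7 and 21.9 TPM) and Stat5b (222.4 and 209.9 TPM). So 3 of 7 members were called, 2 lower and 1 higher, against 28.8% of all genes (18.8% lower and 9.98% higher). With n = 2 several calls rested on 1 library. With replicate 2 of siControl plus DTPA left out, the call of Socs3 was lost (−0.52, adjusted p = 0.122). Leaving out its replicate 1 ended that of Pim1 (0.09, adjusted p = 0.127) and gave Cish one (−0.15, adjusted p = 0.0282). A limma fit of only the groups compared also ended that of Pim1 (0.14, adjusted p = 0.0507). With the repeated file as labelled Epor was not called (−0.18, adjusted p = 0.116).

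The knockdown alone was set against control to ask what the siRNA against Slc39a10 did without the chelator. Pim1 was the clearest change: it stood at 752.5, 746.6 and 755.5 TPM in siZIP10, above every siControl library, at 116.4% of control (log2 change 0.22, SE 0.03, adjusted p = 0.000401). Jak2 was higher, at 82.5, 79.6 and 88.5 TPM in siZIP10 (0.13, SE 0.04, adjusted p = 0.0194), and so was Cish, at 144.1, 134.6 and 140.1 TPM (0.12, SE 0.04, adjusted p = 0.0309). Epor, at 154.2, 149.3 and 151.2 TPM in siZIP10, lay within the range of the siControl libraries (0.01, 95% interval −0.08 to 0.10, adjusted p = 0.911). Socs3, at 4.06, 4.83 and 3.92 TPM, was below every siControl library but was not called (−0.30, 95% interval −0.65 to 0.05, adjusted p = 0.183). Stat5a (0.03, adjusted p = 0.731) and Stat5b (−0.04, adjusted p = 0.345) were not called. The 3 calls among 7 members, all higher, compare with 30.6% of all genes called and 13.1% called higher. The count was 1 without siControl replicate 3 or siZIP10 replicate 3, because Jak2 (adjusted p = 0.0665 and 0.0507) and Cish (adjusted p = 0.0729 and 0.0772) lost their calls, and Cish also lost its call without siControl replicate 1 or 2 or siZIP10 replicate 1 (adjusted p = 0.0693 to 0.108). The call of Cish was lost as well with no filter on low values (adjusted p = 0.0562) and in a limma fit without trend (adjusted p = 0.0588). That of Jak2 was lost in a limma fit of only the groups compared (adjusted p = 0.0559). With the repeated file as labelled neither gene was called (adjusted p = 0.207 for Cish and 0.0511 for Jak2). These comparisons share the siControl libraries, so their values are given side by side and no overlap between them is read.

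The effect of DTPA was next measured within knockdown cells, and that of the knockdown within DTPA. Set against siZIP10, the siZIP10 plus DTPA cells had less Epor (log2 change −1.08, SE 0.04, adjusted p = 3.93e-09), Cish (−0.50, SE 0.04, adjusted p = 5.63e-07), Socs3 (−1.01, SE 0.16, adjusted p = 0.000234) and Jak2 (−0.23, SE 0.04, adjusted p = 0.000241), and more Stat5a (0.83, SE 0.05, adjusted p = 2.34e-07). Pim1 was lower (−0.13, adjusted p = 0.0039), a call lost with median-of-ratios scaling (−0.05) and after rescaling to nuclear protein-coding genes (−0.04). Jak2 there was −0.11 after quantile normalization (adjusted p = 0.00996). Thus 6 of 7 members were called, 5 lower and 1 higher, against 60.4% of all genes (37.3% lower and 23.1% higher). Set against siControl plus DTPA, the same cells had less Epor (−0.79, SE 0.05, adjusted p = 1.79e-07), Cish (−0.29, adjusted p = 0.000125) and Socs3 (−0.60, SE 0.18, adjusted p = 0.0154), and more Stat5a (0.77, SE 0.06, adjusted p = 1.71e-06). Cish there was −0.17 after quantile normalization (adjusted p = 0.00132). That made 4 of 7, 3 lower and 1 higher, against 53.1% of all genes (31.7% lower and 21.3% higher). Leaving out replicate 1 of siControl plus DTPA ended the call of Socs3 there (−0.40, adjusted p = 0.155). A limma fit of only the groups compared ended it as well (−0.60, adjusted p = 0.0692). Jak2 (−0.10, adjusted p = 0.0673) gained a call in that fit (adjusted p = 0.046) and with the repeated file as labelled (−0.14, adjusted p = 0.0211). It also gained one without siZIP10 replicate 2 or 3 (adjusted p = 0.0392 and 0.02). Stat5b (−0.07, adjusted p = 0.12) gained one when replicate 2 of siControl plus DTPA was left out (−0.11, adjusted p = 0.0487).

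The interaction asked whether DTPA acted differently with and without the knockdown. It was called for 5 of 7 members, 4 below 0 and 1 above, against 32.4% of all genes (20.4% below 0 and 12.0% above), and these 5 kept their calls in all 21 alternatives run for it. For Epor the sum of the separate changes was −0.28 and the change with both was −1.08 (interaction −0.79, SE 0.06, adjusted p = 5.51e-06). For Stat5a the sum was 0.12 and the change with both 0.86 (interaction 0.74, SE 0.08, adjusted p = 5.75e-05). Cish was at 0.03 for the sum and −0.38 with both (interaction −0.41, SE 0.05, adjusted p = 0.000216). Pim1 (interaction −0.27, SE 0.05, adjusted p = 0.00124) and Jak2 (−0.23, SE 0.05, adjusted p = 0.0084) stood below the sums of 0.36 and 0.13. After rescaling to nuclear protein-coding genes the interaction of Jak2 was −0.15 (adjusted p = 0.0378). For Socs3 (−0.30, SE 0.24, adjusted p = 0.385) and Stat5b (−0.03, adjusted p = 0.718) the interaction was not called. The ratio of Cish to Epor transcripts, both in TPM, was 1.39 ± 0.0449 in siZIP10 plus DTPA (SD, n = 3), 0.983 ± 0.00737 in siControl plus DTPA (n = 2), 0.921 ± 0.0173 in siZIP10 and 0.854 ± 0.0306 in siControl (n = 3 each).

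**Figure D3:**
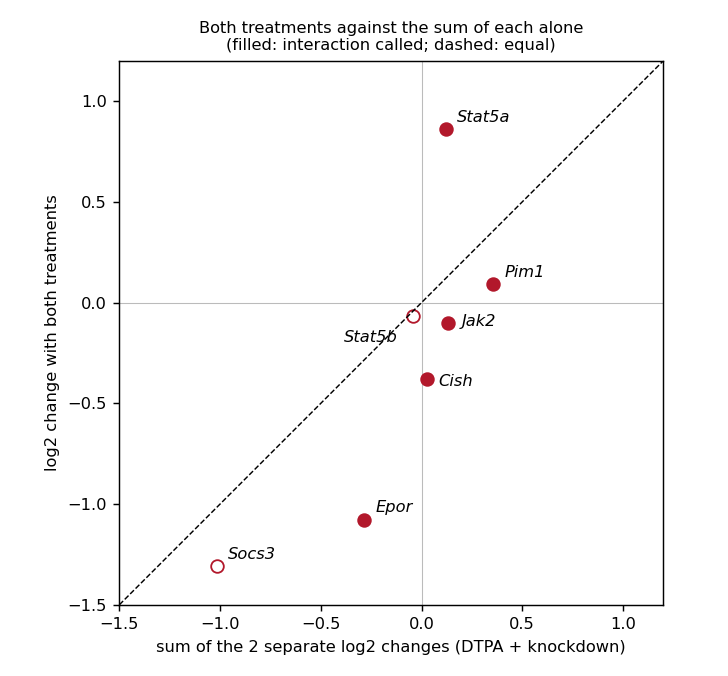
Log2 change with both treatments (vertical axis) against the sum of the log2 changes with DTPA alone and with the knockdown alone (horizontal axis), 1 point for each gene, filled where the interaction was called. Epor (−0.28, −1.08) and Stat5a (0.12, 0.86) lie farthest from the dashed line of equal values.

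Other genes of the pathway were taken in 4 lists. Their counts are to be read beside the shares of all genes called, which were 66.6% with both treatments (26.7% higher and 39.9% lower), 28.8% with DTPA alone (9.98% higher and 18.8% lower) and 30.6% with the knockdown alone (13.1% higher and 17.5% lower). Of the other receptors, kinases and STATs, 10 of 12 were tested, and with both treatments 7 were higher and 2 lower (median log2 change 0.39, against −0.08 over all genes). Kit, the receptor for stem cell factor that works beside the erythropoietin receptor in progenitors, stood at 57.3 ± 2.22 TPM in siZIP10 plus DTPA (SD, n = 3), 20.6 ± 0.187 in siControl plus DTPA (n = 2), 16.3 ± 1.65 in siZIP10 and 14.5 ± 0.656 in siControl (n = 3 each). Kit rose with both treatments (1.91, adjusted p = 1.17e-09) and with DTPA alone (0.48, adjusted p = 0.000751), and its interaction was called (1.28, adjusted p = 5.66e-06). Tfr2, encoding a transferrin receptor that associates with the erythropoietin receptor, rose with both (0.66, adjusted p = 4.11e-05). With DTPA alone 6 of the 10 were higher and 1 lower, and with the knockdown alone 3 were higher and 2 lower.

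Of 20 genes of signal relays below the receptor 19 were tested, and with both treatments 10 were higher and 7 lower, against 66.6% of all genes called (median log2 change 0.11, against −0.08 over all genes). Vav1, which encodes a signalling protein phosphorylated downstream of the receptor, stood at 195.7 ± 1.86 TPM in siZIP10 plus DTPA, 59.0 ± 1.53 in siControl plus DTPA, 37.6 ± 1.06 in siZIP10 and 29.7 ± 1.05 in siControl (SD, n as for Kit). It rose in all 3 comparisons with control (2.68, 0.96 and 0.33 in the order both, DTPA alone, knockdown alone; largest adjusted p = 5.23e-05). The phospholipase gene Plcg1 (0.95) and the adaptor gene Gab2 (0.74) rose with both as well. The phosphatase gene Ptpn11 (−0.79), the kinase gene Map2k1 of the MAP kinase pathway (−0.77) and the adaptor gene Shc1 (−0.66) fell with both. With DTPA alone 7 of the 19 were higher and 5 lower, and with the knockdown alone 5 were higher and 4 lower.

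Of 16 negative regulators 15 were tested. With both treatments 6 were higher and 3 lower, against 66.6% of all genes called (median log2 change 0.07, against −0.08 over all genes). With DTPA alone none was higher and 3 were lower, against 28.8% of all genes called. With the knockdown alone 3 were higher and 2 lower, against 30.6%. Taken over both directions, these counts were near or below the shares over all genes. By direction, 26.7% of all genes were called higher and 39.9% lower with both treatments. The shares were 9.98% higher and 18.8% lower with DTPA alone, and 13.1% higher and 17.5% lower with the knockdown alone. The SOCS family gene Socs7 fell with both treatments to 29.8 ± 1.22 TPM in siZIP10 plus DTPA, against 55.4 ± 0.973 TPM in siControl (SD, n = 3 each; −0.87, adjusted p = 1.44e-08). No other SOCS gene of this list was called lower with both treatments, and Socs5 rose (0.47, adjusted p = 0.000458). Pias3, named for inhibition of STAT3, rose with both (0.37) and with the knockdown alone (0.24) and fell with DTPA alone (−0.23).

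Of 18 symbols listed as other reported targets of STAT5 or erythropoietin 14 were tested, and with both treatments 3 were higher and 8 lower, against 26.7% of all genes called higher and 39.9% called lower (median log2 change −0.19, against −0.08 over all genes). Erfe, which encodes erythroferrone, the erythropoietin-induced hormone that lowers hepcidin, fell most: its level was 0.481 ± 0.206 TPM in siZIP10 plus DTPA, 6.38 ± 0.186 in siControl plus DTPA, 7.60 ± 1.41 in siZIP10 and 17.4 ± 1.99 in siControl (SD, same n as above). It fell with both (−3.64, adjusted p = 2.78e-09), with DTPA alone (−1.31, adjusted p = 0.00016) and with the knockdown alone (−1.10, adjusted p = 0.000231). Bcl2l1, the gene of the survival protein BCL-XL, went both ways: its level was 123.6 ± 1.97 TPM in siZIP10 plus DTPA, 220.6 ± 0.577 in siControl plus DTPA, 235.6 ± 3.29 in siZIP10 and 201.3 ± 2.58 in siControl. It fell with both (−0.70, adjusted p = 6.08e-10) and rose with DTPA alone (0.13) and with the knockdown alone (0.23). Gata1 fell with both (−1.02), with DTPA alone (−0.50) and with the knockdown alone (−0.41). The line has no GATA1 gene of its own, so its Gata1 reads are taken as those of the introduced gene, although sequences were not told apart. Gata1 stays in the counts of this list, but its fall is not read as that of a native target gene. Higher with both were Egr1 (1.87), Myc (1.33) and Pim2 (0.39), all known to respond to cytokine signals. With DTPA alone 3 of the 14 were higher and 4 lower, and with the knockdown alone 4 were higher and 6 lower.

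**Figure D4:**
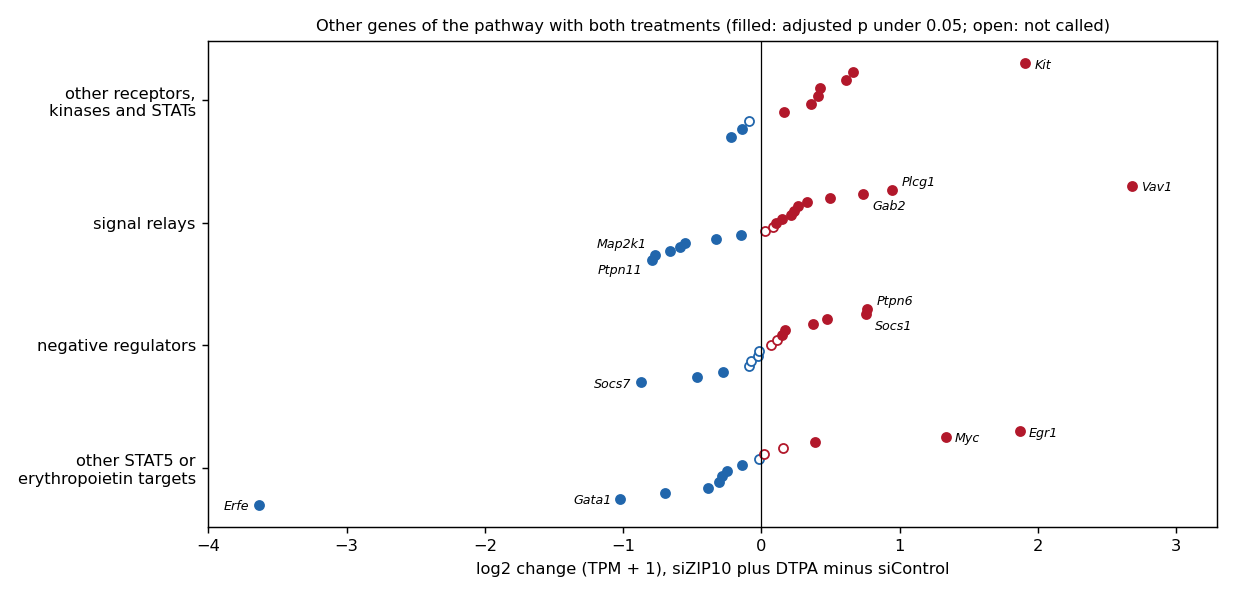
Log2 change of TPM + 1 with both treatments against siControl for the tested genes of the 4 lists, 1 point for each gene, filled where called, with names where the change is at least 0.7 in size. Vav1 (2.68) and Kit (1.91) are highest in their lists and Erfe (−3.64) is lowest of all.

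Genes whose levels followed those of the members most closely were found by Pearson's r of log2(TPM + 1) over the 11 libraries, among genes with an SD of at least 0.2; the libraries fall into 4 groups, so r describes a shared pattern over groups. Epor was followed most closely by Atp6ap1 (r = 0.997), Eps15l1 (0.997) and Nf2 (0.997). Nf2 averaged 33.7 TPM in siZIP10 plus DTPA, 57.0 in siControl plus DTPA, 68.9 in siZIP10 and 70.5 in siControl. Stat5a was followed by Zpr1 (0.997), Actg1 (0.995) and 9930104L06Rik (0.995), and Cish by Slc18a1 (0.992), Snx8 (0.991) and Atp6v1a (0.988). For Socs3 the closest were Pxmp4, Ssh1 and Slc12a4 (0.980, 0.980 and 0.979), for Pim1 Frmd5, Ift57 and Ypel4 (0.950, 0.923 and 0.895) and for Jak2 Neat1, Pikfyve and Parp14 (0.948, 0.947 and 0.941). Stat5b, which varied least (SD 0.04), had the lowest values, 0.902 for Gm15815, 0.859 for Sh3bp1 and 0.850 for 1110025M09Rik. Jak2 (SD 0.098), Pim1 (SD 0.092) and Stat5b themselves varied by less than the 0.2 asked of the other genes. For these members, genes that varied as little as they did were not searched.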

How the data were processed

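Per the labels' protocols, poly(A) RNA was sequenced from stranded libraries. The authors deposited TPM per gene for 12 libraries, of which 11 were used. The submitters' processing notes name HISAT2 2.1.0, Trimmomatic 0.33, featureCounts, FastQC, edgeR and mm10, without their roles; the annotation is not given. Positions and exon lengths came from GENCODE M21 (53170 of 55367 gene names matched). Reads were recovered from TPM times exon length: 98.9% to 99.1% of values of up to 20 reads came out whole within 0.1 read. These reads give the depth.

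Rows with a mean of 1 TPM or more were fitted as log2(TPM + 1), a scale that shrinks changes of low genes, by limma 3.58.1 (R 4.3.3, trend, 4 group means, 7 residual degrees of freedom). Tests were two-sided, with Benjamini-Hochberg adjustment over all genes of a comparison, and a gene with adjusted p under 0.05 is called. Replicates are cultures of 1 line, so a p measures the spread between them. The fit was tested on simulated data. The members, lists and tests were chosen with earlier results of these data known. All members are named; from a list, in each comparison and direction, named genes come from the 3 called ones with the largest change and a mean of at least 5 TPM. Tables and figures were made with matplotlib 3.10.9, pandas 2.3.3 and Python 3.11.15. The lymphoid marker list is not reported here. The closing section gives the alternatives.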

Additional observations from a re-analysis of the deposited data

Results flagged for a closer look

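For 5 genes the DTPA effect in knockdown cells differed from that in cells with the control siRNA by the interaction test of limma. The difference, knockdown minus control siRNA on the log2(TPM + 1) scale, was −0.794 for Epor, 0.74 for Stat5a, −0.409 for Cish, −0.265 for Pim1 and −0.23 for Jak2. For Epor the DTPA effect was −1.08 in knockdown cells and −0.29 in cells with the control siRNA, and for Stat5a it was 0.83 and 0.09, the last not called. Pim1 was called higher with DTPA in cells with the control siRNA (0.14) and lower with DTPA in knockdown cells (−0.13). The siZIP10 plus DTPA libraries are also those whose make-up stood apart, and the part of this in the differences was not tested beyond the scalings given next.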

How the results depend on the processing

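Under 22 alternatives (21 for the interaction, which has no fit of only the groups compared), 867 values of single members kept their side of the threshold without a called change of direction, 34 lost their call, 6 gained one and 4 reversed. Of the 867, 37 changed sign while not called. With both treatments Epor, Stat5a, Cish and Socs3 kept direction and call in every alternative that tested them; Socs3 is not tested with a filter of 5 TPM, and Cish was −0.18 after quantile normalization, against −0.38. With the knockdown alone the count of members called was 1 with the repeated file as labelled and 1 to 3 when a library was left out. After quantile normalization Jak2 with both treatments was 0.059, Stat5b with both treatments 0.10, and Stat5b with DTPA in knockdown cells 0.11; rescaling to nuclear protein-coding genes, an alternative chosen after seeing the data, gave 0.0619 for the last. Same-numbered libraries did not deviate together (correlations −0.06 to 0.06), so the numbers were not taken as pairs. With a replicate block 3137 genes were called with DTPA alone, against 3272 without it, and no member's call changed. The share of higher calls moved with scaling: with both treatments it was 40.1% as reported and 50.2% after quantile normalization, with DTPA alone 34.7% and 51.1%, with the knockdown alone 42.9% and 54.3%. Rescaling to nuclear protein-coding genes changed it for DTPA in knockdown cells (38.2% without and 50.2% with it), for the knockdown within DTPA (40.2% and 53.2%) and for the interaction (37.1% and 54.3%). The cause was not tested. Depth limits Socs3 most, with 26 to 117 reads in a library.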

Other observations

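Csf2rb and Csf2rb2 encode the signalling chains of the receptors for interleukin 3 and related cytokines, which also act through JAK2 and STAT5, and they were singled out after their values were seen. They are near-identical copies, so the division of reads between them is uncertain. Csf2rb averaged 1654 ± 42.2 TPM in siZIP10 plus DTPA (SD, n = 3), 2047 ± 121 in siControl plus DTPA (n = 2), 1334 ± 47.8 in siZIP10 and 1826 ± 37.1 in siControl (n = 3 each). It was lower with both treatments (log2 change −0.14, limma adjusted p = 0.00585) and with the knockdown alone (−0.45, adjusted p = 1.3e-05) and higher with DTPA alone (0.16, adjusted p = 0.0134), and its interaction was not called (0.15, adjusted p = 0.0727). Csf2rb2 was likewise lower with the knockdown alone (−0.37, adjusted p = 0.00012) and higher with DTPA alone (0.15, adjusted p = 0.0397), but was not called with both treatments (−0.09, adjusted p = 0.083) or for the interaction (0.13, adjusted p = 0.159).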
